A study of Mus musculus with 23 samples.

Results

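The genes described here belong to the eicosanoid pathway: *Hpgd*, the gene with the largest rise in leukaemic granulocyte-macrophage progenitors (L-GMPs) of control genotype over MLL-AF9 progenitors that gave no leukaemia, and other enzymes and receptors of prostaglandins and leukotrienes. Of the 10 genes listed, 9 had a probe set that carried their symbol alone, among 19937 genes measured in this way. These were *Hpgd*, *Hpgds*, *Ptgs2*, *Ptger2*, *Ptger4*, *Alox5*, *Alox5ap*, *Lta4h* and *Ltc4s*, each with 1 probe set, and all 9 were tested without a filter on low values. *Ptgs1* was not analysed here. The values that chose *Hpgd* came from the control L-GMPs and the MLL-AF9 progenitors, so these values are given as a description, and the genes were tested only in the other comparisons.

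The study hybridised RNA of cells sorted from mouse marrow to 23 Affymetrix arrays, 1 sample per array, in 9 groups. All donors carried floxed *Cebpa* (C/EBPa f/f), the gene of a transcription factor that drives granulocyte and monocyte differentiation, and all received 3 injections of poly I:C, an inducer of interferon. Knockout mice were Mx.1-Cre+, so that poly I:C switched on Cre, and controls were Mx.1-Cre-. Common myeloid progenitors (CMPs) of controls (n = 4) and knockouts (n = 4) and granulocyte-macrophage progenitors (GMPs) of controls (n = 3) were taken 5 days after the injections, without transplantation. The remaining cells came from lethally irradiated congenic recipients, which also received congenic helper marrow. Their donor cells had been kept in medium with cytokines, among them IL-3 at 10 ng/ml and SCF, the ligand of Kit, at 100 ng/ml, and infected with the retrovirus MSCV-MLL-AF9-IRES-GFP, which carries a leukaemia fusion gene and a green fluorescent reporter. Control L-GMPs came from 2 primary and 2 secondary recipients. Knockout L-GMPs came from 1 primary recipient (mouse 3) and 2 secondary recipients of its marrow, so the 3 arrays are 1 leukaemia. Mouse 3 became leukaemic once it had been injected with vectors (1 mg) that express GM-CSF and IL-3, which the labels place 2 to 4 months after transplantation. GFP+ cells of knockout recipients without leukaemia were sorted as stem and progenitor cells (KSLs, n = 2, mice 9 and 11) or as CMPs (n = 3, mice 9, 11 and 4), so these 5 arrays come from 3 mice. Whether these mice also received the cytokine vectors was not given in the sources used here. No group holds normal GMPs of knockouts or non-leukaemic MLL-AF9 cells of controls, and the ages of the mice were not given in the sources used here.

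Eicosanoids are signalling lipids made from arachidonic acid. Cyclooxygenases, among them the inducible enzyme encoded by *Ptgs2*, make prostaglandin H2, which terminal synthases turn into prostaglandin E2, prostaglandin D2 and other prostanoids. Prostaglandin E2 acts through receptors that include EP2 (*Ptger2*) and EP4 (*Ptger4*), both coupled to cyclic AMP, and is known for its effects on blood stem and progenitor cells. The enzyme encoded by *Hpgd*, 15-hydroxyprostaglandin dehydrogenase, begins the breakdown of prostaglandins. In a separate branch, 5-lipoxygenase (*Alox5*) and its activating protein (*Alox5ap*) make leukotriene A4, which Lta4h turns into leukotriene B4, an attractant of neutrophils, and Ltc4s into leukotriene C4, a product of mast cells and eosinophils.

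The promoters of 3 of the genes are shown so that genes with different patterns over the groups can be set side by side: *Hpgd*, which was high on L-GMP arrays alone, *Ptger4*, which was low on them, and *Ptgs2*, whose levels in L-GMPs and GMPs overlapped. The sequences are those of RefSeq (GRCm38.p6), from 250 bases before the gene's start to 50 after it, 5′ to 3′ on the gene's strand. They lie at chr8:56294302-56294601 (plus strand) for *Hpgd*, chr1:150099781-150100080 (plus strand) for *Ptgs2* and chr15:5244138-5244437 (minus strand) for *Ptger4*. Capitals mark matches to the motifs searched.
Hpgd: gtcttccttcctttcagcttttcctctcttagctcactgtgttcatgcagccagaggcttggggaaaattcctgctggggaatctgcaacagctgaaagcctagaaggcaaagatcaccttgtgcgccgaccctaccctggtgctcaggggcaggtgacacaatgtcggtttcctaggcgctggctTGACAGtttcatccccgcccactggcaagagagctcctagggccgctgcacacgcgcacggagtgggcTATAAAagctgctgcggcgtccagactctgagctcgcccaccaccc
Ptgs2: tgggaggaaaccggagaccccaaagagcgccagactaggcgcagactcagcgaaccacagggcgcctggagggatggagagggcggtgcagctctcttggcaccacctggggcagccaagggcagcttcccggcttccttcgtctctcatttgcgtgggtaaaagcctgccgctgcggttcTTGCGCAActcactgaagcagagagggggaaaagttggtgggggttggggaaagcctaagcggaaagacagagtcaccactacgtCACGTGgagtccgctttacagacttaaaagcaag
Ptger4: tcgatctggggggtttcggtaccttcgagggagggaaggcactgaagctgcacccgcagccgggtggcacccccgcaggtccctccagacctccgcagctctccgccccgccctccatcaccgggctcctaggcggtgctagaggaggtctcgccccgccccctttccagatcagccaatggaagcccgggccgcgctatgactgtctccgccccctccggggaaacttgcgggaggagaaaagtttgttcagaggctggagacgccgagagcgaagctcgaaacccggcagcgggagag

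Motifs were searched on both strands in the promoters of the 8 genes with an entry (*Alox5ap* had none) and in all 32851 promoters of the table. With the first base of the gene counted as 1, and no base 0, the *Hpgd* promoter held the TATA box TATAAA at position 5, present in 13.6% of all promoters, and the MEIS motif TGACAG at position -64, present in 19.2%. The *Ptgs2* promoter held the C/EBP motif TTGCNNAA at position -69, as the palindrome TTGCGCAA, and the E-box CACGTG at position 17. The C/EBP motif was present in 10.8% of all promoters and the E-box in 7.15%. The C/EBP motif also occurred in *Hpgds* at position -176 and in *Ptger2* at position 40, and the ETS motif GAGGAAGT, present in 3.20% of all promoters, in *Hpgds* at position -49. No match was found in the *Ptger4*, *Alox5*, *Lta4h* or *Ltc4s* windows, and the cyclic AMP response element TGACGTCA, present in 1.79% of all promoters, occurred in none of the 8. The GC content was 58.0% in *Hpgd*, 59.3% in *Ptgs2* and 67.0% in *Ptger4*, against a median of 52.7%, and the number of CpG dinucleotides was 12, 16 and 25, against a median of 7.

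Levels are log2 values that the submitters' processing notes assign to RMA, a method that subtracts background, equalises arrays and summarises probes. They are comparable between arrays for 1 probe set and not between genes, and no deposited value is below 3. *Cebpa* itself read 7.19 to 7.83 in control CMPs, 7.33 to 7.78 in control GMPs, 7.36 to 7.96 in control L-GMPs, and 4.33 to 5.55 on the arrays of knockout cells, so no array went against its genotype label. Arrays of MLL-AF9 progenitors and of control L-GMPs varied more within groups (median absolute residual 0.0942 to 0.176) than untransplanted ones (0.0683 to 0.0812). The 2 arrays of secondary knockout L-GMPs read 0.0776. Residuals from a mean of 2 arrays come out smaller than from 3 or 4, so that value does not settle whether they varied more. The spread estimated from all 23 arrays enters every test. Whether the control L-GMP recipients shared a donor was not given in the sources used here, so p-values here reflect only how these arrays vary, and their small number limits the precision. Transplanted and untransplanted cells cannot be told apart from any difference between the 2 experiments. Of the sort markers, 4 were measured. *Fcgr3* (an Fc receptor) read 7.26 to 8.28 in control CMPs, 7.24 to 8.64 in knockout CMPs, 9.60 to 9.76 in GMPs, 9.42 to 10.28 in L-GMPs and 4.67 to 8.87 in MLL-AF9 progenitors, and *Fcgr2b* ranged from 5.27 on an MLL-AF9 progenitor array to 8.84 on an L-GMP array. *Kit* read 9.12 to 9.37 in control CMPs, 9.45 to 9.78 in knockout CMPs, 8.65 to 9.02 in GMPs, 9.45 to 10.78 in MLL-AF9 progenitors and 6.33 to 9.03 in L-GMPs. *Cd34* read 10.62 to 10.78 in control CMPs, 9.98 to 10.35 in knockout CMPs, 10.05 to 10.24 in GMPs, 8.71 to 10.11 in L-GMPs and 7.99 to 8.73 in MLL-AF9 progenitors. Among lists of markers of other cells, stromal and endothelial genes averaged 5.34 to 5.95 and lymphoid genes 5.05 to 7.26 over all arrays.

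The arrays of mouse 9, 1 of KSLs and 1 of CMPs, stood apart. Of 9 measured mast cell markers, 8 (*Cpa3*, *Mcpt4*, *Tpsab1*, *Tpsb2*, *Cma1*, *Ms4a2*, *Fcer1a* and *Hdc*, not *Gata2*) were higher on both than on any other array. So were 2 of 3 basophil markers (*Mcpt8* and *Cd200r3*). The remaining basophil marker, *Prss34*, was low on both, at 4.66 in KSLs and 4.42 in CMPs, against 4.54 to 9.92 on the other arrays. The mean of the mast cell list was 9.29 and 8.34 on these arrays and 4.37 to 6.43 on the rest. *Cma1*, the gene of mast cell chymase, read 9.84 and 7.78, against 4.23 at most elsewhere. On the CMP array of mouse 4, megakaryocyte and platelet markers averaged 9.35, against 5.01 to 8.06 on the other arrays. Values without mouse 9 are given where they end a call or move a printed difference by over 1.5 times.

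*Hpgd* (chromosome 8, 56294552 to 56321046 in GRCm38.p6, the build of all positions here) was high on every L-GMP array and near the low end of the scale on every other. It read 11.69 and 11.67 in primary and 11.46 and 11.69 in secondary control L-GMPs, and 11.17, 11.10 and 11.05 in knockout L-GMPs. The other 16 arrays read 4.16 to 5.01, with a median of 4.50. The gap between the lowest L-GMP array and the highest other array was 6.04 log2 units, and no array lay within it.

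**Figure D1:**
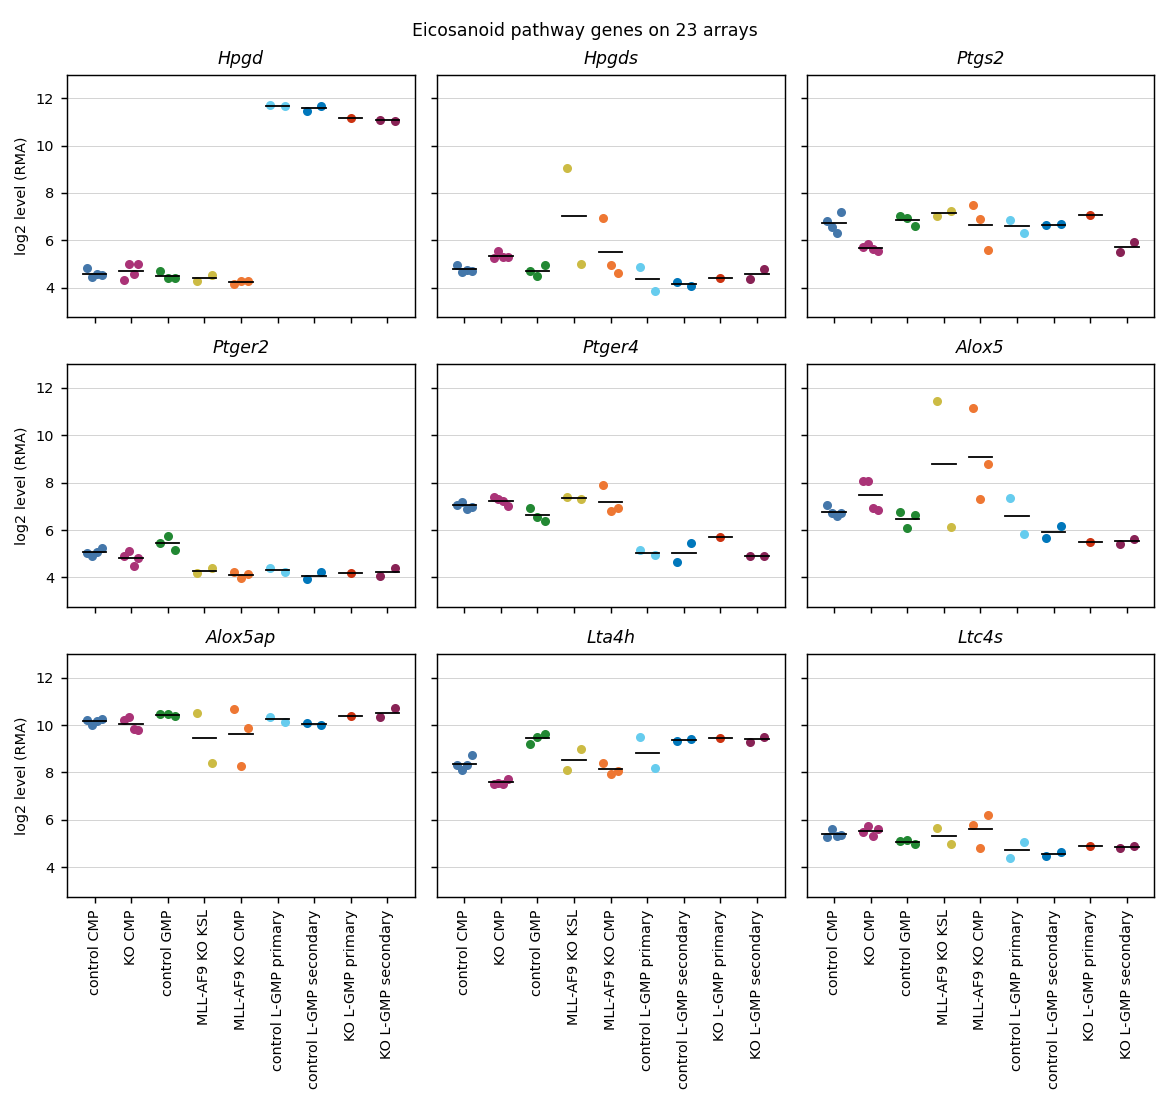
Log2 level (vertical axis, RMA) of the 9 genes on each of the 23 arrays, in the 9 groups of the horizontal axis. Points are arrays and black lines are group means. *Hpgd* lies between 11.05 and 11.69 in all L-GMP groups and between 4.16 and 5.01 elsewhere, *Ptger4* is lowest in the L-GMP groups, and the highest points of *Hpgds* and *Alox5* in the MLL-AF9 groups are arrays of mouse 9.

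In the contrast that chose it, *Hpgd* had a mean of 11.63 in control L-GMPs (n = 4) and 4.32 in MLL-AF9 knockout progenitors (n = 5), a difference of 7.31 ± 0.13 (SE), or 158.9-fold. The next genes in that ranking were *Hp* (haptoglobin) with 6.89, *Elane* (neutrophil elastase) with 6.46 and *Chil3* with 5.56. The other eicosanoid genes lay far from it. *Lta4h* ranked 645 of 19937 with a difference of 0.76, *Alox5ap* ranked 946 with 0.62, and *Alox5* ranked 19872 with -2.67. Without mouse 9 the differences were 7.22 for *Hpgd*, 1.41 for *Alox5ap*, -0.82 for *Alox5* and -0.63 for *Hpgds*, which had -2.00 with it. No test is given for these values.

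On arrays that the choice did not use, *Hpgd* rose in knockout L-GMPs. The difference was 6.62 ± 0.16 (SE) against control GMPs (n = 3 and 3, 98.2-fold, limma, Benjamini-Hochberg adjusted p = 5.33e-13) and 6.40 ± 0.15 against knockout CMPs (n = 3 and 4, 84.5-fold, adjusted p = 3.38e-13). All 3 knockout L-GMP arrays lay above all arrays of both reference groups. These 3 arrays hold 1 leukaemia, which the p-values do not take into account. The reference arrays, and the MLL-AF9 progenitors of the contrast above, read below the median of all probe sets on an array (5.23 to 5.38). They are not shown to be above background, so the folds are those of the fitted log2 values and not exact ratios of transcript. In whole-population RNA, a larger share of cells with a transcript and more transcript per cell cannot be told apart, here and in all comparisons that follow.

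Among untransplanted cells *Hpgd* did not pass the test. It read 4.31, 4.98, 4.59 and 5.01 in knockout CMPs, 4.81, 4.47, 4.56 and 4.55 in control CMPs and 4.69, 4.41 and 4.42 in GMPs, and these ranges overlap. Its difference was 0.13 ± 0.14 between knockout and control CMPs (adjusted p = 0.85) and -0.09 ± 0.15 between GMPs and CMPs (adjusted p = 1.00). In the order of group means, primary and secondary control L-GMPs (11.68 and 11.58) overlap each other. They are followed by primary and secondary knockout L-GMPs (11.17 and 11.07). The 3 knockout arrays lie below the 4 control L-GMP arrays, with a difference of -0.51 that was not tested because the control arrays chose the gene. The other groups follow with means of 4.72 in knockout CMPs, 4.60 in control CMPs, 4.51 in GMPs, 4.40 in MLL-AF9 KSLs and 4.24 in MLL-AF9 CMPs, and each overlaps the next.

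Over all genes, 63 of 19937 (0.316%) were higher on all 7 L-GMP arrays than on any of the other 16, and 169 (0.848%) were lower on all of them. Of the 9 eicosanoid genes, 1 was in the first set, *Hpgd*, and 1 in the other, *Ptger4*. Since *Hpgd* was chosen on some of these arrays, its place there is a description. The gap of *Hpgd* was the widest. The next were those of *Olfm4* with 1.34, *Penk* with 1.20, *Igf2bp3* with 1.09 and *Nrg4* with 0.95.

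The genes whose 9 group means were most like those of *Hpgd*, among 5153 genes whose means spanned at least 1 log2 unit, were *Penk* (Pearson r = 0.976), *Cd177* (0.964), *Cd300c2* (0.961), *Slc26a10* (0.956) and *Man2b1* (0.954). These values describe 9 points that fall into a high and a low cluster and share arrays and their normalisation. *Penk*, the gene of proenkephalin, read 6.12 to 9.20 in L-GMPs and 3.81 to 4.92 elsewhere. *Cd177*, a neutrophil surface gene, read 6.40 to 7.80 against 4.98 to 5.68. *Man2b1*, a lysosomal mannosidase, read 9.81 to 10.6 against 8.03 to 9.51. In all 5 the L-GMP arrays lay above the other arrays, by less than in *Hpgd*.

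**Figure D2:**
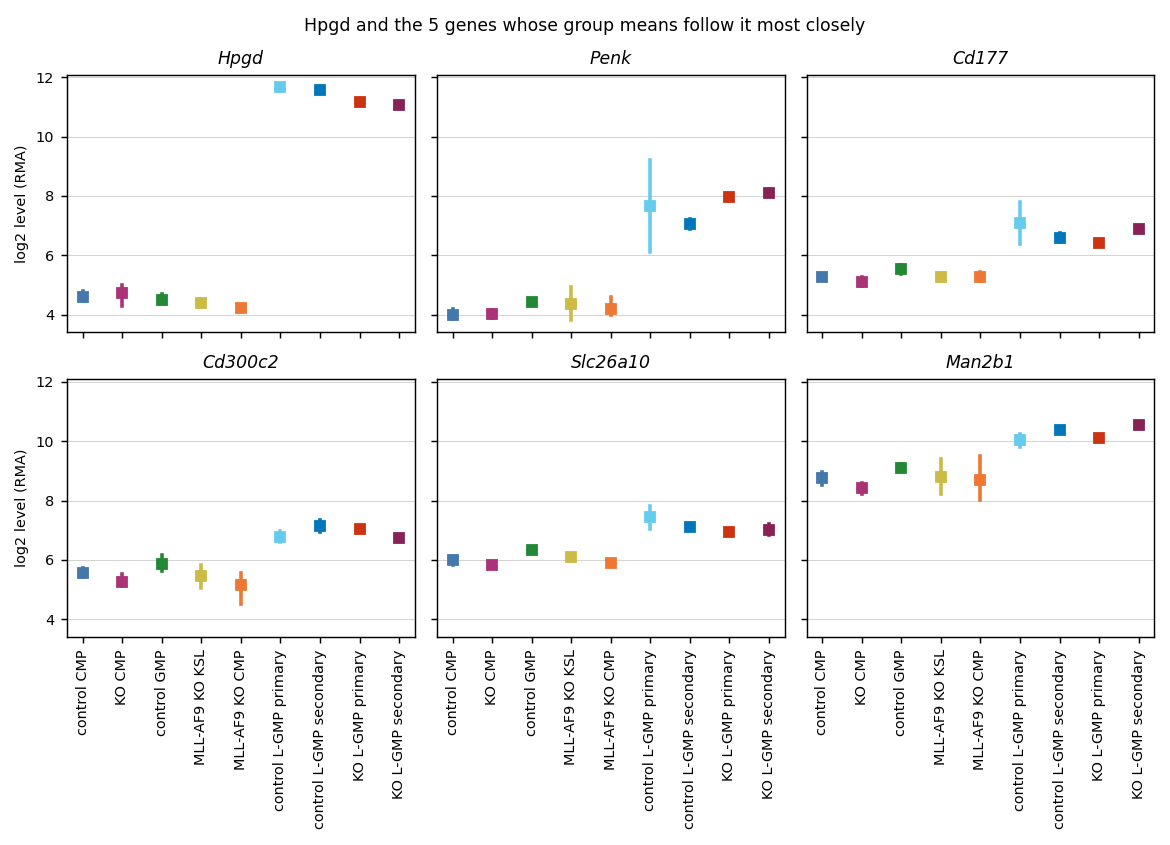
Log2 level (vertical axis, RMA) of *Hpgd* and the 5 genes whose group means follow it most closely, by group. Squares are group means and vertical lines run from the lowest to the highest array. The L-GMP groups are above the others in each panel, by 6.04 between the nearest arrays in *Hpgd* and 1.20 in *Penk*.

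*Ptgs2*, the inducible cyclooxygenase (chromosome 1, 150100031 to 150108234), did not pass the test in any comparison. Its level was 6.81, 6.56, 6.33 and 7.19 in control CMPs and 5.72, 5.85, 5.63 and 5.56 in knockout CMPs. The 2 sets do not overlap, and the knockout arrays are all lower. The difference of -1.03 ± 0.30 (SE, n = 4 and 4) had an adjusted p of 0.059. It passed when noisier arrays had less weight (adjusted p = 0.0004), in a fit of the 8 arrays alone (0.010), with arrays centred on their medians (0.037) and with dim genes left out (0.026). In none of the 8 fits that left out 1 array did it pass (adjusted p up to 0.19). On the same arrays the means of the monocyte list were 4.78 to 5.52 in knockouts and 7.90 to 8.16 in controls, and those of the neutrophil list 5.80 to 6.62 and 7.39 to 8.48. Their part in the *Ptgs2* difference was not tested.

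In GMPs *Ptgs2* read 7.03, 6.95 and 6.62. Control L-GMPs read 6.84, 6.33, 6.65 and 6.68, and knockout L-GMPs read 7.08 in the primary recipient but 5.52 and 5.94 in the secondary ones. MLL-AF9 knockout CMPs read 7.50, 6.88 and 5.59, so the array of mouse 4 lay among the knockout CMPs and the others above them. Their difference from knockout CMPs was 0.97 ± 0.32 (adjusted p = 0.099), 1.50 (0.0017) without the array of mouse 4 and 0.55 (0.31) without mouse 9. Against knockout CMPs the knockout L-GMPs differed by 0.72 ± 0.33 (adjusted p = 0.15), with overlapping arrays. That difference passed with array weights (0.018) and in a fit of those arrays alone (0.014), and was 0.043 without the primary knockout L-GMP array.

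*Hpgds*, the haematopoietic prostaglandin D synthase that mast cells use (chromosome 6, 65117293 to 65144981), read above 5.53 only on the arrays of mouse 9. It read 9.05 in the KSLs and 6.94 in the CMPs of mouse 9, and 4.99 and 4.97 in those of mouse 11. The CMPs of mouse 4 read 4.61, control CMPs 4.67 to 4.95, GMPs 4.50 to 4.95 and L-GMPs 3.84 to 4.87. Knockout CMPs read 5.25, 5.53, 5.28 and 5.30, all above control CMPs. That difference of 0.57 ± 0.63 had an adjusted p of 0.85 with the spread of all 23 arrays, which includes mouse 9, and of 0.0071 in a fit of the 8 arrays alone. Mast cell markers averaged 5.53 to 6.18 in knockout CMPs and 6.09 to 6.43 in controls. Knockout L-GMPs lay below knockout CMPs in *Hpgds* without overlap, with a difference of -0.86 ± 0.70. Its adjusted p was 0.45 with the spread of all arrays and 0.0096 in a fit of those arrays alone.

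The knockout L-GMPs differed from MLL-AF9 progenitors by -1.78 ± 0.68 in *Hpgds* (adjusted p = 0.10). This difference passed with array weights (-1.93, adjusted p = 0.025) and with dim genes left out (0.046). The value was -0.41 without mouse 9 and -2.79 (adjusted p = 0.00045) without the KSL array of mouse 11. Between MLL-AF9 CMPs and KSLs the difference was -1.51 ± 0.81 (adjusted p = 0.31). It turned to 0.52 without the KSL array of mouse 9 and was -3.54 without that of mouse 11. Each of these fits leaves 1 KSL array and keeps the CMP array of the mouse left out. Within the animals, CMPs minus KSLs was -2.10 in mouse 9 and -0.016 in mouse 11. Without both arrays of mouse 9 the fitted difference was -0.20. The size of both differences, that against L-GMPs and that between CMPs and KSLs, moved with mouse 9.

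*Ptger4*, the gene of the EP4 receptor (chromosome 15, 5233399 to 5244187), fell in L-GMPs against GMPs, knockout CMPs and MLL-AF9 progenitors. It read 5.15, 4.95, 4.63 and 5.45 in control L-GMPs and 5.71, 4.92 and 4.92 in knockout L-GMPs. GMPs read 6.92, 6.56 and 6.38, control CMPs 6.91 to 7.17, knockout CMPs 7.00 to 7.39 and MLL-AF9 progenitors 6.82 to 7.88. All 7 L-GMP arrays lie below all others, with GMPs the nearest.

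The difference in *Ptger4* was -1.58 ± 0.23 (SE) in control L-GMPs against GMPs (n = 4 and 3, adjusted p = 0.00035) and -1.31 ± 0.25 in knockout L-GMPs against GMPs (adjusted p = 0.0034). Against knockout CMPs the knockout L-GMPs differed by -1.91 ± 0.23 (adjusted p = 3.25e-05), and against MLL-AF9 progenitors by -1.97 ± 0.23 (adjusted p = 1.93e-05). The first and the second comparison share the GMP arrays, and the last shares its reference with the contrast that chose *Hpgd*, in which *Ptger4* differed by -2.24. Without mouse 9 the last value was -1.78 (adjusted p = 2.3e-05).

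*Ptger2*, the gene of the EP2 receptor (chromosome 14, 44988111 to 45003820), was higher on every array of untransplanted cells than on any array of MLL-AF9 cells, whether leukaemic or not. It read 5.46, 5.74 and 5.14 in GMPs, 4.89 to 5.25 in control CMPs and 4.49 to 5.11 in knockout CMPs. L-GMPs read 3.91 to 4.41 and MLL-AF9 progenitors 3.98 to 4.38. The probe set is dim, and RMA compresses changes of dim probes.

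*Ptger2* fell by 1.25 ± 0.16 (SE) on the log2 scale in control L-GMPs against GMPs (n = 4 and 3, adjusted p = 0.00013) and by 1.24 ± 0.17 in knockout L-GMPs against GMPs (adjusted p = 0.00032). It also fell in MLL-AF9 knockout CMPs against knockout CMPs, by 0.72 ± 0.16 (n = 3 and 4, adjusted p = 0.016), and in knockout L-GMPs against knockout CMPs, by 0.63 ± 0.16 (adjusted p = 0.013). The call in MLL-AF9 CMPs was lost without knockout CMP 2 (-0.63, adjusted p = 0.053) or without the CMP array of mouse 11 (-0.65, 0.053), with array weights (0.25) and in a fit of those arrays alone (0.081). The call against knockout CMPs was lost without secondary knockout L-GMP 1 (-0.54, adjusted p = 0.051).

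*Alox5*, 5-lipoxygenase (chromosome 6, 116410071 to 116461178), was highest in the non-leukaemic MLL-AF9 cells, with a wide spread between mice. It read 11.43 in the KSLs and 11.17 in the CMPs of mouse 9, 8.80 in the CMPs of mouse 4, and 6.11 and 7.32 in the KSLs and CMPs of mouse 11. Knockout L-GMPs read 5.49, 5.43 and 5.63, below every other array. Control L-GMPs read 7.35, 5.84, 5.68 and 6.19, control CMPs 6.60 to 7.05, GMPs 6.09 to 6.75 and knockout CMPs 8.08, 8.08, 6.91 and 6.86.

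*Alox5* fell in knockout L-GMPs against MLL-AF9 progenitors, by 3.42 ± 0.96 (n = 3 and 5, 10.7-fold, adjusted p = 0.025). The 5 progenitor arrays come from 3 mice and the 3 L-GMP arrays from 1 leukaemia, and the fit takes each array as independent, here and in the other comparisons of these groups. Without mouse 9 the difference was -1.58 (adjusted p = 0.036). The call was lost without the KSL array of mouse 9 alone (-2.09, adjusted p = 0.062), without secondary knockout L-GMP 1 (-3.37, 0.063) or 2 (-3.47, 0.061), and in a fit of those arrays alone (0.42). The other differences of *Alox5* did not pass the test. The largest was -1.97 ± 0.99 in knockout L-GMPs against knockout CMPs (adjusted p = 0.19), which passed with array weights (0.012) and in a fit of those arrays alone (0.019). It was 1.61 ± 0.96 in MLL-AF9 against untransplanted knockout CMPs (adjusted p = 0.38), or 0.58 (0.52) without mouse 9, and -0.76 ± 0.99 between knockout and control L-GMPs (adjusted p = 0.74).

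The levels of *Hpgds* and *Alox5* are set against the mast cell markers of each array because mouse 9 was highest in all 3. On the CMP array of mouse 4 *Alox5* read 8.80 with a mast cell mean of 5.67, within the range of untransplanted cells. The part of mast cell transcripts in either gene was not tested. Of the 9 eicosanoid genes, 3 (*Hpgds*, *Alox5* and *Ptger4*) were higher on both arrays of mouse 9 than on all other arrays, against 529 of 19937 genes (2.65%). For *Ptger4* the margin was narrow, 7.40 against 7.39.

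**Figure D3:**
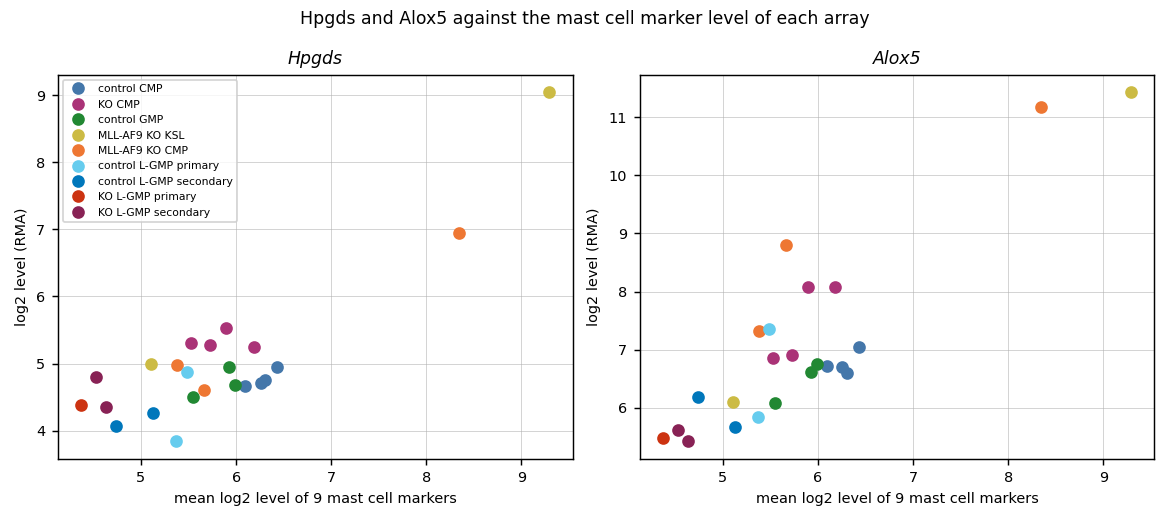
Log2 level (vertical axes, RMA) of *Hpgds* and *Alox5* against the mean log2 level of the 9 measured mast cell markers (horizontal axis), with 1 point for each of the 23 arrays, coloured by group. The 2 points at the upper right of each panel, with marker means of 9.29 and 8.34, are the KSLs and CMPs of mouse 9.

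*Alox5ap*, the activating protein of 5-lipoxygenase (chromosome 5, 149265004 to 149288153), read about the same in most groups, at 10.0 to 10.3 in control CMPs, 9.80 to 10.33 in knockout CMPs, 10.4 to 10.5 in GMPs and 10.0 to 10.7 in L-GMPs. The arrays of mouse 11 stood below, at 8.38 in KSLs and 8.29 in CMPs, while mouse 9 read 10.49 and 10.67 and mouse 4 read 9.89. No comparison passed the test with all arrays. The difference between knockout L-GMPs and MLL-AF9 progenitors, 0.94 ± 0.46 (adjusted p = 0.21), was 1.73 (adjusted p = 0.0011) without mouse 9 and 1.46 (0.021) without its KSL array alone.

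*Lta4h*, the enzyme of leukotriene B4 synthesis (chromosome 10, 93453396 to 93484896), was lowest in knockout CMPs and highest in GMPs and most L-GMPs. Knockout CMPs read 7.53, 7.55, 7.52 and 7.72, and control CMPs 8.33, 8.08, 8.32 and 8.72. GMPs read 9.20, 9.51 and 9.61, and knockout L-GMPs 9.44, 9.30 and 9.50. Control L-GMPs read 9.49, 9.34 and 9.40, with 1 primary array at 8.18, and MLL-AF9 progenitors read 7.95 to 8.98. Knockout and control CMPs do not overlap, nor do GMPs and control CMPs.

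*Lta4h* rose in knockout L-GMPs against knockout CMPs, by 1.84 ± 0.26 (3.58-fold, adjusted p = 0.00015), and against MLL-AF9 progenitors, by 1.08 ± 0.26 (2.12-fold, adjusted p = 0.0093). The last call held without mouse 9 (0.92, adjusted p = 0.025) and was lost in a fit of those arrays alone (adjusted p = 0.14). The difference of -0.78 ± 0.24 between knockout and control CMPs (adjusted p = 0.077) and of 1.08 ± 0.26 between GMPs and CMPs (adjusted p = 0.062) did not pass with the spread of all arrays. With array weights both passed (adjusted p = 0.00056 and 0.00024), and in fits of the compared arrays alone they did so too (0.0084 and 0.031). Neither passed in any fit that left out 1 array (adjusted p up to 0.23 and 0.29). Neutrophil markers averaged 5.80 to 6.62 in knockout CMPs, 7.39 to 8.48 in control CMPs, 9.03 to 9.59 in GMPs and 8.29 to 9.51 in knockout L-GMPs. Their part in the *Lta4h* values was not tested.

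The knockout effect on *Lta4h* was 0.32 in L-GMPs and -0.78 in CMPs. The difference of these effects, 1.10 ± 0.36, did not pass the test (adjusted p = 0.12). Without primary control L-GMP 1 it was 1.43 (adjusted p = 0.0066), and with array weights 1.09 (0.029).

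*Ltc4s*, the leukotriene C4 synthase of mast cells and eosinophils (chromosome 11, 50236461 to 50238532), had levels that overlapped between many of the groups. It read 5.27 to 5.60 in control CMPs, 5.31 to 5.74 in knockout CMPs, 4.96 to 5.16 in GMPs, 4.39 to 5.05 in L-GMPs and 4.81 to 6.20 in MLL-AF9 progenitors. The eosinophil markers averaged 6.83 to 7.05 in GMPs, 4.43 to 5.31 in control CMPs and 3.83 to 4.04 in knockout CMPs. No difference in *Ltc4s* passed the test in the fit reported. Between knockout L-GMPs and knockout CMPs the difference was -0.65 ± 0.26 (adjusted p = 0.095), and the arrays did not overlap. That difference passed with array weights (0.0041) and in a fit of those arrays alone (0.013). That of knockout L-GMPs against MLL-AF9 progenitors was -0.57 ± 0.25 (adjusted p = 0.17), -0.76 (0.010) without the CMP array of mouse 11 and -0.36 (0.46) without mouse 9.

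Between knockout and control CMPs 0 of 9 passed in limma's test, where 4.91% of all genes passed. An unadjusted p below 0.05 was found for 2 of the 9 and for 3068 of all 19937 genes. Array weights, centring and the filter on dim genes each called 2, *Ptgs2* and *Lta4h*, and a fit of the 8 arrays alone called 3, with *Hpgds*. Over all genes, 979 passed in the fit reported, 3762 with array weights and 3220 in the fit of the 8 arrays. The median difference of the 9 genes was 0.13. Between GMPs and control CMPs 0 of 9 passed, where 1.05% of all genes did, and the median was -0.06. Here 2 of the 9 and 1569 of the 19937 genes had an unadjusted p below 0.05. The same 4 settings each called 1, *Lta4h*. The median over all genes lay between -0.02 and 0.01 in all comparisons tested.

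In the comparisons with L-GMPs, *Hpgd* is counted only where the arrays did not choose it. Knockout L-GMPs against control GMPs gave 3 of 9, *Hpgd* higher and *Ptger2* and *Ptger4* lower, with a median of -0.23, where 10.4% of all genes passed. Knockout L-GMPs against knockout CMPs gave 4 of 9, *Hpgd* and *Lta4h* higher and *Ptger2* and *Ptger4* lower, with a median of -0.63, where 19.0% passed. Array weights called 7 and a fit of the compared arrays alone 8, settings in which the calls over all genes also went from 3786 to 7107 and 6756. Control L-GMPs against control GMPs gave 2 of 8, both lower, with a median of -0.39, where 25.3% of all genes passed. Knockout L-GMPs against MLL-AF9 progenitors gave 3 of 8, *Lta4h* higher and *Ptger4* and *Alox5* lower, with a median of -0.53, where 13.2% passed. A fit of those arrays alone called 1, *Ptger4*, and the fit without mouse 9 called 4.

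Between knockout and control L-GMPs 0 of 8 passed in limma's test, where 3.27% of all genes passed, and the median was 0.24. Of the 8, 0 had an unadjusted p below 0.05, against 3824 of all 19937 genes. Intervals of the 8 differences stay wide, such as that of *Ptger4*, which ran from -0.23 to 0.77. MLL-AF9 knockout CMPs against knockout CMPs gave 1 of 8, *Ptger2*, lower, where 4.88% passed and the median was 0.11. That count was 0 with array weights and 2, with *Ptgs2*, without the array of mouse 4. MLL-AF9 CMPs against KSLs gave 0 of 8, where 3.32% passed and the median was -0.16. Here 0 of the 8 and 4029 of the 19937 genes had an unadjusted p below 0.05. The test of whether the knockout effect differs between L-GMPs and CMPs gave 0 of 8, where 2.80% passed and the median was 0.17. In it, 1 of the 8 and 3249 of the 19937 genes had an unadjusted p below 0.05.

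**Figure D4:**
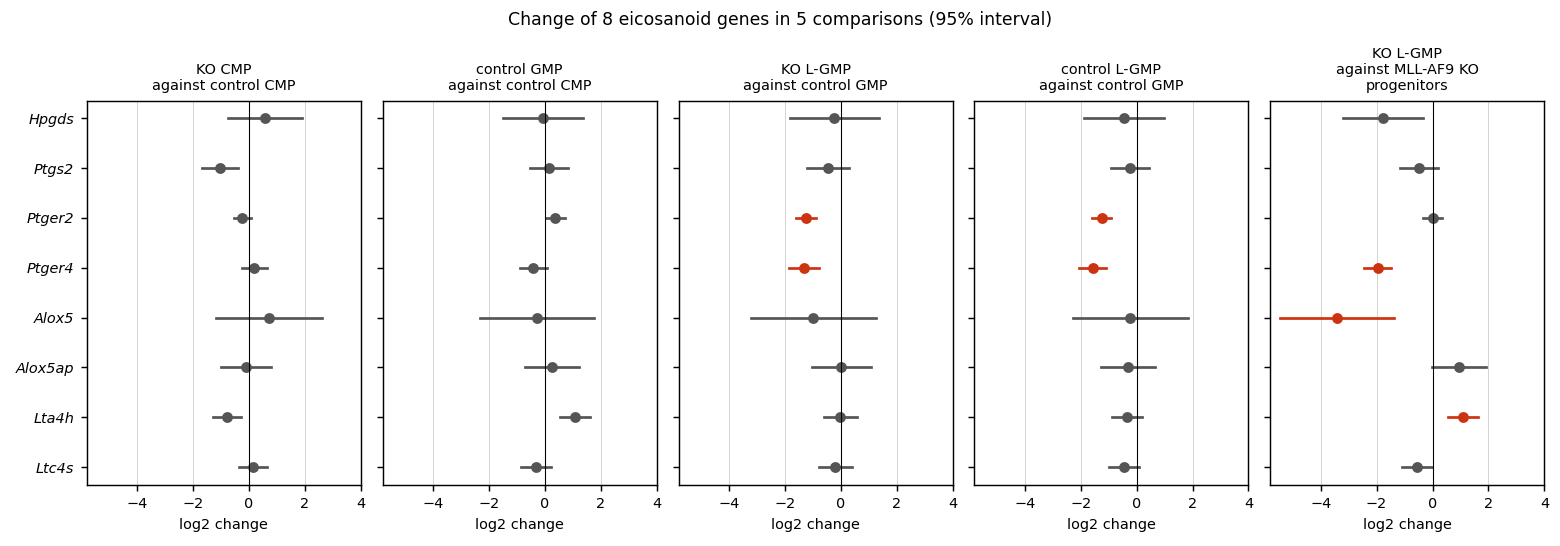
Log2 change (horizontal axes) of the 8 genes other than *Hpgd* in 5 of the comparisons. Points are limma estimates, lines are 95% intervals, and red marks an adjusted p under 0.05. *Ptger2* and *Ptger4* are red against GMPs in both kinds of L-GMPs, and *Ptger4*, *Alox5* and *Lta4h* are red against MLL-AF9 progenitors.

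The rest of the pathway was followed with a list of 47 further genes of arachidonate release, prostanoid synthesis, prostanoid receptors, transport and inactivation, leukotriene enzymes and receptors, and other lipoxygenases, of which 43 were measured. Their median difference lay between -0.13 and 0.08 in all comparisons. In knockout CMPs *Ggt5*, an enzyme that acts on leukotriene C4, was higher by 0.65 ± 0.18 (adjusted p = 0.049). *Abcc4*, a transporter that exports prostaglandins, was lower by 0.49 ± 0.12 (0.027). These were 2 of 43, about the 4.91% of all genes that passed. The call of *Ggt5* was lost without any 1 of the 8 arrays (adjusted p up to 0.15) and that of *Abcc4* without 6 of them (up to 0.10).

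In GMPs against CMPs 3 of 43 rose and 0 fell, where 1.05% of all genes passed in either direction. They were *Ptgr1*, prostaglandin reductase 1, which acts after Hpgd on prostaglandins and also inactivates leukotriene B4 (1.59 ± 0.33, adjusted p = 0.026), *Ltb4r1*, the leukotriene B4 receptor (1.42 ± 0.22, 0.0042), and *Cysltr1*, a receptor of cysteinyl leukotrienes (0.84 ± 0.19, 0.038). The calls of *Ptgr1* and *Cysltr1* were each lost in 5 of 7 fits that left out 1 array, with adjusted p up to 0.16 and 0.13. Erythroid markers averaged 5.58 to 5.89 in GMPs and 7.49 to 8.48 in CMPs, and megakaryocyte markers 5.50 to 5.95 and 6.91 to 7.27.

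*Ptgr1* was highest in knockout L-GMPs. It read 10.63, 10.83 and 10.92 there, 10.16, 8.42, 8.32 and 8.52 in control L-GMPs, 8.85, 9.54 and 9.51 in GMPs, 7.51 to 8.12 in control CMPs, 6.77 to 7.17 in knockout CMPs and 6.20 to 7.73 in MLL-AF9 progenitors. The knockout L-GMP arrays lay above all others. *Ptgr1* rose in knockout L-GMPs by 3.75 ± 0.34 against knockout CMPs (13.5-fold, adjusted p = 1.72e-06), by 3.58 ± 0.33 against MLL-AF9 progenitors (1.93e-06), by 1.90 ± 0.34 against control L-GMPs (0.0049) and by 1.45 ± 0.36 against GMPs (0.017). The knockout effect in L-GMPs exceeded that in CMPs by 2.60 ± 0.45 (adjusted p = 0.0045). The call against control L-GMPs was lost in a fit of those arrays alone (0.26), and that against GMPs without GMP 1 (1.23, adjusted p = 0.072).

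**Figure D5:**
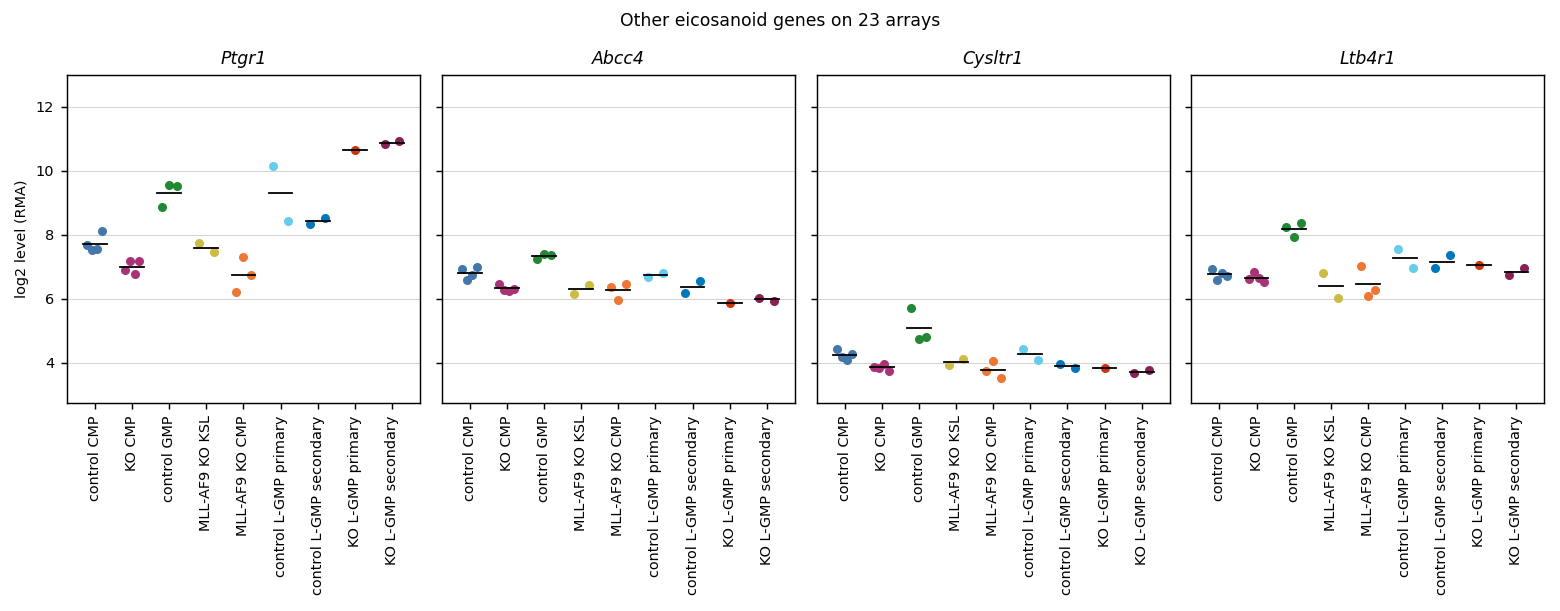
Log2 level (vertical axis, RMA) of *Ptgr1*, *Abcc4*, *Cysltr1* and *Ltb4r1* on each of the 23 arrays, by group. Points are arrays and black lines are group means. *Ptgr1* lies between 10.63 and 10.92 in knockout L-GMPs, above every other array, while the other 3 genes are highest in GMPs.

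Against GMPs, 6 of 43 passed in knockout L-GMPs (1 higher, 5 lower), where 10.4% of all genes passed, and 11 of 43 in control L-GMPs (4 higher, 7 lower), where 25.3% did, about the share in the list. Both comparisons share the GMP arrays. *Abcc4* fell by 1.41 ± 0.14 in knockout L-GMPs (adjusted p = 2.49e-05), *Cysltr1* by 1.31 ± 0.20 (0.00075) and *Ltb4r1* by 1.23 ± 0.25 (0.0047). In control L-GMPs the largest changes were falls of *Mgst3*, a microsomal glutathione transferase, by 1.46 ± 0.33 (0.0055), *Cysltr1* by 1.00 ± 0.19 (0.0018), *Ltb4r1* by 0.96 ± 0.22 (0.0066) and *Ptges2*, a prostaglandin E synthase, by 0.88 ± 0.20 (0.0060). The calls of *Cysltr1* were lost in fits of the compared arrays alone (adjusted p = 0.063 in knockout and 0.057 in control L-GMPs).

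Against knockout CMPs 9 of 43 passed in knockout L-GMPs (3 higher, 6 lower), where 19.0% of all genes passed. After *Ptgr1*, the largest were *Mgst2*, which can make leukotriene C4 (2.28 ± 0.70, adjusted p = 0.033), *Cysltr2*, a cysteinyl leukotriene receptor (-2.22 ± 0.40, 0.0010), and *Pla2g4a*, the cytosolic phospholipase that releases arachidonate (-1.51 ± 0.26, 0.00061). *Pla2g4a* read 7.01, 6.36 and 6.56 in knockout L-GMPs and 8.17 to 8.32 in knockout CMPs. *Cysltr2* read 3.13, 3.33 and 3.00 in knockout L-GMPs, at or near the lowest deposited value, so its difference is compressed. The call of *Mgst2* was lost in 5 of 7 fits that left out 1 array (adjusted p up to 0.078). Between the same arrays, megakaryocyte markers averaged 5.19 to 5.37 in knockout L-GMPs and 7.21 to 8.06 in knockout CMPs, erythroid markers 5.89 to 6.11 and 7.85 to 8.20, and monocyte markers 8.04 to 8.17 and 4.78 to 5.52. Their part in these differences was not tested.

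Against MLL-AF9 progenitors 5 of 43 passed in knockout L-GMPs (1 higher, 4 lower), where 13.2% of all genes passed. Beside *Ptgr1*, these included *Ptger3*, the EP3 receptor of prostaglandin E2 (-2.06 ± 0.56, adjusted p = 0.021), *Cysltr2* (-1.80 ± 0.39, 0.0048) and *Abcc1*, an exporter of leukotriene C4 (-0.77 ± 0.17, 0.0056). *Ptger3* read 8.87 and 7.24 on the arrays of mouse 9, 7.62 in mouse 4 and 5.63 and 5.45 in mouse 11, and 4.68 to 5.05 in knockout L-GMPs. Without mouse 9 its difference was -1.14 and did not pass (adjusted p = 0.064), nor did it pass without secondary knockout L-GMP 2 (-1.97, 0.067). In fits of those arrays alone *Ptger3*, *Cysltr2* and *Abcc1* did not pass (adjusted p = 0.42, 0.27 and 0.28).

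Between knockout and control L-GMPs 3 of 43 passed, where 3.27% of all genes passed. Beside *Ptgr1*, *Mgst3* was higher by 1.42 ± 0.34 (adjusted p = 0.033) and *Abcc4* lower by 0.63 ± 0.14 (0.018). *Mgst3* read 7.10, 6.53 and 6.96 in knockout and 5.62, 4.33, 6.21 and 5.84 in control L-GMPs, without overlap. Its call was lost in 5 of 7 fits that left out 1 array (adjusted p up to 0.10), and both calls were lost in a fit of those arrays alone (0.29 and 0.25). The call of *Abcc4* was also lost without primary control L-GMP 2 (-0.59, adjusted p = 0.0501), secondary control L-GMP 2 (-0.54, 0.071) or secondary knockout L-GMP 2 (-0.60, 0.059).

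In MLL-AF9 knockout CMPs against knockout CMPs 1 of 43 passed, where 4.88% of all genes did. It was *Ggt5*, which was lower by 0.85 ± 0.19 (adjusted p = 0.021). This call was lost with array weights (0.056), in a fit of those arrays alone (0.12), without knockout CMP 1 (-0.83, 0.055) or 2 (-0.78, 0.063) and without mouse 9 (-0.74, 0.068). Between MLL-AF9 CMPs and KSLs 0 of 43 passed in limma's test, where 3.32% of all genes passed. An unadjusted p below 0.05 was found for 5 of the 43 and for 4029 of all 19937 genes. For the difference of the knockout effects 1 of 43 passed, *Ptgr1*, where 2.80% of all genes did.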

How the data were processed

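RNA of sorted mouse bone marrow cells was amplified with the NuGen Ovation Pico WTA V2 kit, labelled with biotin and hybridised to 23 Affymetrix arrays, per the labels' protocols. The authors deposited log2 values. The submitters' processing notes name RMA. The RMA version and its settings were not given in the sources used here. Of 34760 probe sets, 21640 had 1 gene symbol in the platform annotation, 1321 had several and 11799 had none listed. Probe sets with 1 symbol were used, and for the 954 genes with several the probe set with the highest mean was taken, which left 19937 genes. All value columns were matched to a sample (0 unmatched). No pair of arrays held identical values, and the highest correlation of 253 pairs was 0.991.

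Means of the 9 groups were fitted to all 23 arrays with limma 3.58.1 in R 4.3.3 (moderated variance with a trend), and p-values were adjusted over all 19937 genes by Benjamini-Hochberg, with a threshold of 0.05. Differences are log2, first group minus second, with SE. Primary and secondary L-GMPs were averaged with equal weight for each group, and so were MLL-AF9 KSLs and CMPs. The primary knockout L-GMP array therefore counted as much as the secondary ones together. The code was tested on simulated data. Alternatives were array weights, fits of the compared arrays alone, median centring, genes with a mean of at least 5, no variance trend, the mean of all probe sets, the replicate number as a block, and leaving out each array. Leaving out both arrays of mouse 9 was chosen after seeing the data.

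The genes and lists were chosen with earlier results of these data known. The text names all listed genes, per comparison up to 4 other eicosanoid genes past the threshold with the largest change, and the 5 genes most like *Hpgd*. Genes named for their rank or gap beside *Hpgd* and the motifs were picked after values were seen. KSL and CMP arrays of mice 9 and 11 are paired by animal, and their deviations from group means correlated at 0.45 and 0.26 in the comparison of CMPs with KSLs. In that comparison the replicate block called 0 of 8 of the genes, as did the fit without it. Over all genes the block called 0, where the fit without it called 662. The paired fit therefore cannot decide whether these genes differ. In other groups equal numbers are only names.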

Additional observations from a re-analysis of the deposited data

Results flagged for a closer look

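*Lta4h* in knockout CMPs had 1 array apart from the rest. The levels were 7.52, 7.53, 7.55 and 7.72, and the gap below the highest made up 0.867 of the range, above Dixon's critical value for 4 samples. Of the groups and genes 18 were examined in this way, and chance marks about 1 in 20. The array lies below all control CMPs, so the order of the groups is the same with and without it.

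For *Ptgr1* the knockout effect differed between cell types. It was 1.90 in L-GMPs and the arrays of knockout CMPs all lay below those of control CMPs, and the difference of the effects was 2.60 (limma, adjusted p = 0.0045). The knockout L-GMP arrays hold 1 leukaemia, of a mouse injected with vectors for GM-CSF and IL-3, so genotype, this leukaemia and the cytokines cannot be told apart in this value.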

How the results depend on the processing

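The number of eicosanoid genes called moved with the estimate of spread. With array weights it was 2 in knockout against control CMPs, 1 in GMPs against CMPs, 7 in knockout L-GMPs against knockout CMPs, 0 in MLL-AF9 CMPs against knockout CMPs and 1 for the difference of knockout effects. With median centring it was 2 in knockout CMPs and 1 in GMPs. With genes of mean 5 or more it was 2 in knockout CMPs, 1 in GMPs, 1 in control L-GMPs against GMPs and 0 in MLL-AF9 CMPs against knockout CMPs (the dim *Ptger2* probe set is then left out). With only the compared arrays it was 3 in knockout CMPs, 1 in GMPs, 8 in knockout L-GMPs against knockout CMPs, 1 against MLL-AF9 progenitors and 0 in MLL-AF9 CMPs against knockout CMPs. The replicate block, on numbers that pair no samples outside mice 9 and 11, gave 3 in knockout CMPs (*Ptgs2*, *Lta4h* and *Hpgds*) and 0 in knockout L-GMPs against GMPs, against knockout CMPs and against MLL-AF9 progenitors, in control L-GMPs against GMPs and in MLL-AF9 CMPs against knockout CMPs. It left few residual degrees of freedom: *Hpgd* then rose by 6.53 against GMPs (adjusted p = 0.17) and by 6.56 against knockout CMPs (0.084). Fits without 1 array called 0 to 2 in MLL-AF9 CMPs against knockout CMPs, 0 to 1 against KSLs and 0 to 1 for the difference of effects. *Hpgds* in MLL-AF9 CMPs against KSLs reversed to 0.52 without the KSL array of mouse 9 (range -3.54 to 0.52). That fit keeps the CMP array of mouse 9, and within mice 9 and 11 the CMPs read below the KSLs (-2.10 and -0.016). A fit without a variance trend and the mean of all probe sets changed none of these counts.

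Over all genes, the counts with array weights were 3762 in knockout CMPs (979 in the fit reported), 1257 in GMPs (209), 5119 in knockout L-GMPs against GMPs (2068), 7107 against knockout CMPs (3786), 335 in MLL-AF9 CMPs against knockout CMPs (972), 3 against KSLs (662) and 1280 for the difference of effects (558). With the compared arrays alone they were 3220 in knockout CMPs, 643 in GMPs, 6756 in knockout L-GMPs against knockout CMPs, 11 against control L-GMPs (651), 347 against MLL-AF9 progenitors (2632), 3258 in control L-GMPs against GMPs (5052), 443 in MLL-AF9 CMPs against knockout CMPs, 0 against KSLs and 1582 for the difference of effects. The replicate block gave 2220 in knockout CMPs, 38 in knockout L-GMPs against MLL-AF9 progenitors, 908 for the difference of effects and 0 in the other 7. Fits without 1 array gave 355 to 2850 in MLL-AF9 CMPs against KSLs, 409 to 2449 in knockout against control L-GMPs, 490 to 2035 in MLL-AF9 CMPs against knockout CMPs and 70 to 196 in GMPs against CMPs. Array weights were 0.26 to 0.542 for MLL-AF9 progenitor arrays and 1.54 to 2.92 for untransplanted ones. The cause of these shifts was not tested. The small number of arrays, and dim probe sets such as *Ptger2* and *Cysltr2*, limit what can be detected.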
